A study of Homo sapiens with 24 samples.

Results

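The 8 genes described here encode heterogeneous nuclear ribonucleoproteins (hnRNPs), a family of abundant nuclear RNA-binding proteins: HNRNPA1, HNRNPA2B1, HNRNPC, HNRNPD, HNRNPK, HNRNPL, HNRNPM and HNRNPU. They were picked by identity and not by a measured value, were found by Ensembl identifier in every table, and are 8 of the 20426 genes that all 24 tables list. Each table holds counts per gene from one ribosome profiling library, either of ribosome-protected fragments (RPF, or footprints) or of the INPUT RNA, made from human colon cell lines after cycloheximide at 100 µg/mL for 10 minutes, which stops ribosomes on their mRNAs. The cancer lines were HCT116, SW620 and HCT15, labelled as colon cancer cells. HCT15 was profiled in a form labelled COPS7B overexpression, in a form titled PLVX, the name of a lentiviral expression vector, and as the line itself, and all cancer populations but the first of these forms carried the genotype label WT. The COPS7B protein belongs to the COP9 signalosome, a complex that regulates ubiquitin ligases. The reference population was 841CON, labelled as normal colon epithelium cells of genotype WT. Each of these 6 populations had 2 RPF and 2 INPUT libraries, and media differed by line per the labels' protocols, so line and medium cannot be told apart. The stated aim was to set each cancer line's translational efficiency (TE, footprints per unit of INPUT RNA) against that of 841CON.

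hnRNPs coat pre-mRNA as it is transcribed and influence splicing, export, stability and translation. Several family members compete with SR proteins for splice sites, and some, hnRNP A1 and A2/B1 among them, are known in cancer cells for shifting the splicing of pyruvate kinase mRNA toward its M2 form. Many hnRNP genes also limit their own expression by feeding their pre-mRNA into nonproductive splicing.

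In RefSeq on GRCh38.p14 the 8 genes are protein-coding and lie on 7 chromosomes. HNRNPA1 (ENSG00000135486) is at chr12:54280726-54287087, HNRNPA2B1 (ENSG00000122566) at chr7:26189927-26200746, HNRNPC (ENSG00000092199) at chr14:21209147-21269442 and HNRNPD (ENSG00000138668) at chr4:82352498-82373991. HNRNPK (ENSG00000165119) is at chr9:83968083-83980615 and HNRNPU (ENSG00000153187) at chr1:244850297-244864543. HNRNPL (ENSG00000104824), at chr19:38836370-38852347, and HNRNPM (ENSG00000099783), at chr19:8444975-8489114, share a chromosome. Annotated pseudogenes named for the gene number 75 for HNRNPA1, 9 for HNRNPC and 5 for HNRNPK, and between 0 and 2 for each of the other genes. How reads that fit several places were counted is not given in the sources used here, so HNRNPA1 counts above all are uncertain. HNRNPK overlaps MIR7-1, HNRNPK-AS1 and RMI1, HNRNPL overlaps LOC124904712, and HNRNPU overlaps SNORA100 and LOC124904588, and the strand setting of the counting is not given either.

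HNRNPL and HNRNPM moved most alike across the INPUT libraries and were both called in HCT116, so the 150 bases before their annotated starts are shown, read from RefSeq promoter windows, matched for 7 of the 8 genes. The HNRNPL window is chr19:38852348-38852497 on the minus strand, and that of HNRNPM is chr19:8444825-8444974 on the plus strand. Capitals mark matches, on either strand, to one of 4 motifs that are common in promoters. The GC box was searched as GGGCGG and the CCAAT box by the letters of its name. The E-box, a palindrome bound by several families of transcription factors, was searched as CACGTG, and the last motif was the NRF1-like palindrome, whose matches are the longer capital runs in the HNRNPM sequence.
HNRNPL: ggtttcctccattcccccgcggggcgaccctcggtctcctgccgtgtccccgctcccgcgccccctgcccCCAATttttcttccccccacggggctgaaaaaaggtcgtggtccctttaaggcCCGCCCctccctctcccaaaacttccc
HNRNPM: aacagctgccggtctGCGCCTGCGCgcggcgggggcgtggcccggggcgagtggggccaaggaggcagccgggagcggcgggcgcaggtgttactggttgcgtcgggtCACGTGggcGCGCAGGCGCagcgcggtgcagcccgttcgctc
The HNRNPL window held 1 GC box and 1 CCAAT box, and that of HNRNPM 1 E-box and 2 NRF1-like motifs, so none of these 4 motifs was present in both. A TATA box, searched as TATAAA, was in neither and in 6.71% of all windows. Over 35116 windows of the same length, 36.8% held a GC box, 23.5% a CCAAT box, 4.57% an E-box and 4.29% an NRF1-like motif. GC content was 66.7% in the HNRNPL window and 77.3% in that of HNRNPM, against a median of 60% over all windows. A match describes the letters of the window and says nothing of binding.

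Counts in the shared genes ranged between 84262 and 4679279 in RPF libraries and between 960395 and 6596429 in INPUT libraries. SW620 gave the shallowest footprint libraries (98043 and 84262 counts), of which the 8 hnRNP genes together held only 135 and 42. The 841CON INPUT replicates had the largest biological coefficient of variation, at 0.706, followed by HCT15 RPF (0.606) and HCT15 INPUT (0.576). It was between 0.0349 and 0.0653 in 4 closely agreeing pairs, namely both HCT116 pairs and the RPF pairs of COPS7B and 841CON. The SW620 RPF replicates had the lowest correlation of log2 CPM, at r = 0.695. Levels are given as normalised CPM, counts scaled to library size with trimmed-mean factors within each assay, and are compared between samples but not between genes, since they are not per length. They are shares of a library, so a change in total RNA per cell would not be seen. The files pair no Ensembl identifier with a name, so colon markers, other hnRNP genes and the level of COPS7B were not analysed here.

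**Figure D1:**
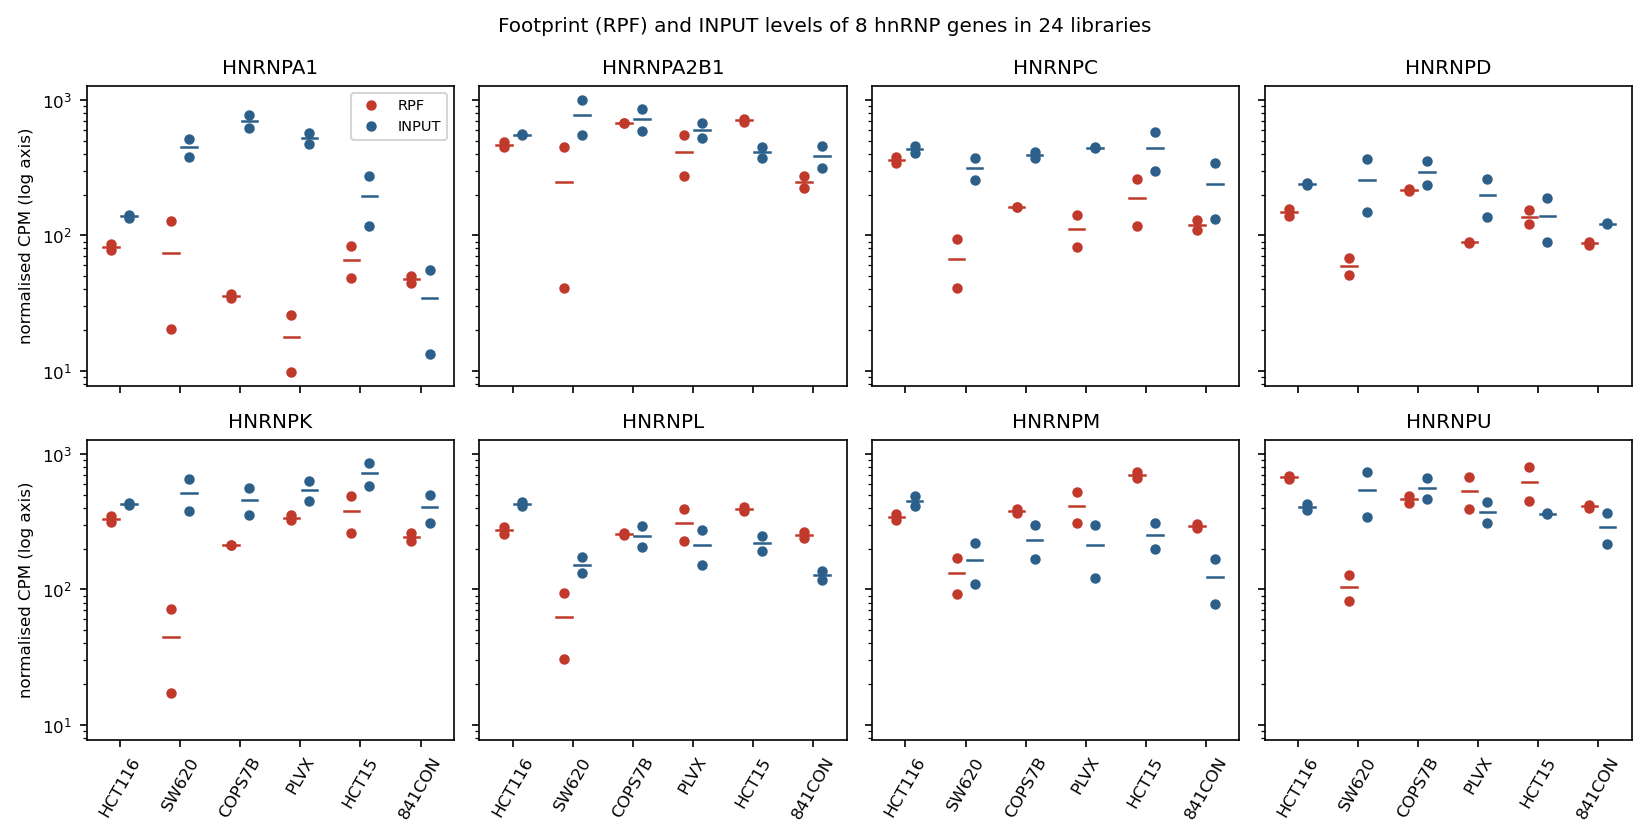
Normalised CPM (log axis) of each of the 8 hnRNP genes in 24 libraries, with one point per library, a line at each group's mean, RPF in red and INPUT in blue. The SW620 RPF points of HNRNPC, HNRNPD, HNRNPK, HNRNPL, HNRNPM and HNRNPU lie below every 841CON RPF point, and HNRNPA1 INPUT is lowest in 841CON.

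As a family, the 8 genes took a larger share of the INPUT counts in the shared genes in every cancer population than in 841CON. INPUT counts outside those genes were not included. They made up 41.2% and 46.2% of all INPUT counts in SW620, against 14.4% and 27.6% in 841CON. In the other cancer populations they made up between 11.1% and 28.0%. Shares of all INPUT counts would thus set SW620 closer to 841CON. The mean share was 0.275% ± 0.00751 in HCT116, 0.310% ± 0.110 in SW620, 0.441% ± 0.0849 in COPS7B, 0.337% ± 0.0520 in PLVX and 0.291% ± 0.0377 in HCT15, against 0.142% ± 0.0310 in 841CON (SD, n = 2 each). In footprints the share was 0.271% ± 0.00180 in HCT116, 0.286% ± 0.00167 in COPS7B, 0.222% ± 0.0543 in PLVX and 0.292% ± 0.0348 in HCT15, against 0.133% ± 0.00151 in 841CON. SW620 footprints stood apart at 0.0938% ± 0.0621, with the family's share below that of 841CON in 1 library and just above it in the other.

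The fitted INPUT change relative to 841CON was positive for all 8 genes in each of the 3 lines, with medians of 0.91 in HCT116, 0.81 in HCT15 and 0.68 in SW620 on the log2 scale, against -0.04, -0.02 and 0.02 over all 11938 genes tested. Among genes in the top quartile of INPUT level, where all 8 lie, the medians were 0.07, 0.03 and -0.10. The 3 comparisons use the same 841CON libraries, so their common direction is not independent evidence. All 8 also stayed positive in each line under DESeq2's size factors, without trimmed-mean scaling and with scaling over all 24 libraries, while without 841CON INPUT replicate 1 there were 7 positive in HCT116 and HCT15 and 6 in SW620. Without SW620 INPUT replicate 2, 6 were positive in SW620 with a median of 0.17. In HCT15 7 were positive also without 841CON INPUT replicate 2 or without either HCT15 INPUT library. In SW620 7 were positive without 841CON INPUT replicate 2. At equal depth 6 of the 7 genes tested were positive in HCT116. Without trimmed-mean scaling the family's median was higher by 0.11 in HCT116, 0.37 in HCT15 and 0.28 in SW620. By edgeR's quasi-likelihood test with Benjamini-Hochberg adjustment over all genes, 3 of the 8 rose in HCT116, where 40.1% of genes were called and 19% were called higher. In HCT15 1 of 8 rose, where 35.4% were called and 16.8% called higher, and in SW620 2 of 8, where 44.4% were called and 21.8% called higher. In the top quartile of INPUT level 23.5% were called higher in HCT116, 18% in HCT15 and 21.9% in SW620. The family's counts of 3, 1 and 2 are too small to set it apart from these shares.

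Footprints moved less uniformly. All 8 changes were positive in HCT116 (median 0.74, all genes -0.25) and in HCT15 (median 0.65, all genes 0.27). Among genes in the top quartile by footprint level, which holds 7 of the 8, the medians were 0.17 in HCT116 and 0.40 in HCT15. In that quartile 29.3% were called higher in HCT116 and 32.7% in HCT15. Only 7 of 8 were positive in HCT116 with DESeq2 or with only the compared libraries, and in HCT15 without HCT15 RPF replicate 2. At equal depth 6 of the 7 genes tested were positive in HCT116 and likewise in HCT15. Called higher were 1 of 8 in HCT116, where 59.3% of genes were called (22.6% higher and 36.7% lower), and 2 of 8 in HCT15, where 49.9% were called and 28.8% called higher. In SW620 6 of 8 were negative (median -0.97, all genes -0.13), and 3 of 8 fell, where 38% of genes were called and 19.4% called lower. In that comparison the top quartile of genes by footprint level, which holds 7 of the 8, had a median of -0.72 with 34.1% called lower. The family's median in SW620 footprints was -0.65 with DESeq2, and without trimmed-mean scaling it was -0.37 with 5 of 8 negative. It was -1.74 with all 8 negative without SW620 RPF replicate 1, -0.58 without SW620 RPF replicate 2 and -0.33 over the 7 genes tested at equal depth.

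TE of the family was split in HCT116 and HCT15 and lower throughout in SW620. In HCT116 4 of 8 changes were positive (median 0.01, all genes -0.60), or 5 without trimmed-mean scaling, and 2 of 8 fell, where 45.6% of 8502 genes were called and 30.7% called lower. In HCT15 4 of 8 were positive (median 0.02, all genes 0.29), or 2 with DESeq2 and 3 without trimmed-mean scaling, and 0 of 8 passed in edgeR, where 16.6% of 8876 genes were called (11.5% higher and 5.08% lower). 1 of the 8, HNRNPA1, had an unadjusted p under 0.05 there, and DESeq2 called 1. In SW620 all 8 were negative (median -1.93, all genes -0.31), and 4 of 8 fell, where 18.4% of 8396 genes were called (8.25% higher and 10.1% lower). The top quartile by footprint level, with 7 of the 8, had a median TE change of -0.24 in HCT116, 0.23 in HCT15 and -0.75 in SW620. Called lower in that quartile were 19% in HCT116, 5.09% in HCT15 and 19.9% in SW620. All 8 stayed negative in SW620 under each of the 16 alternatives in which all 8 were tested, with medians between -2.70 (without SW620 RPF replicate 1) and -1.52. The SW620 values rest on few footprint counts in 2 shallow libraries. With all libraries thinned to equal depth, the 7 genes that could be tested were all negative, with a smaller median of -0.78 and 2 called.

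**Figure D2:**
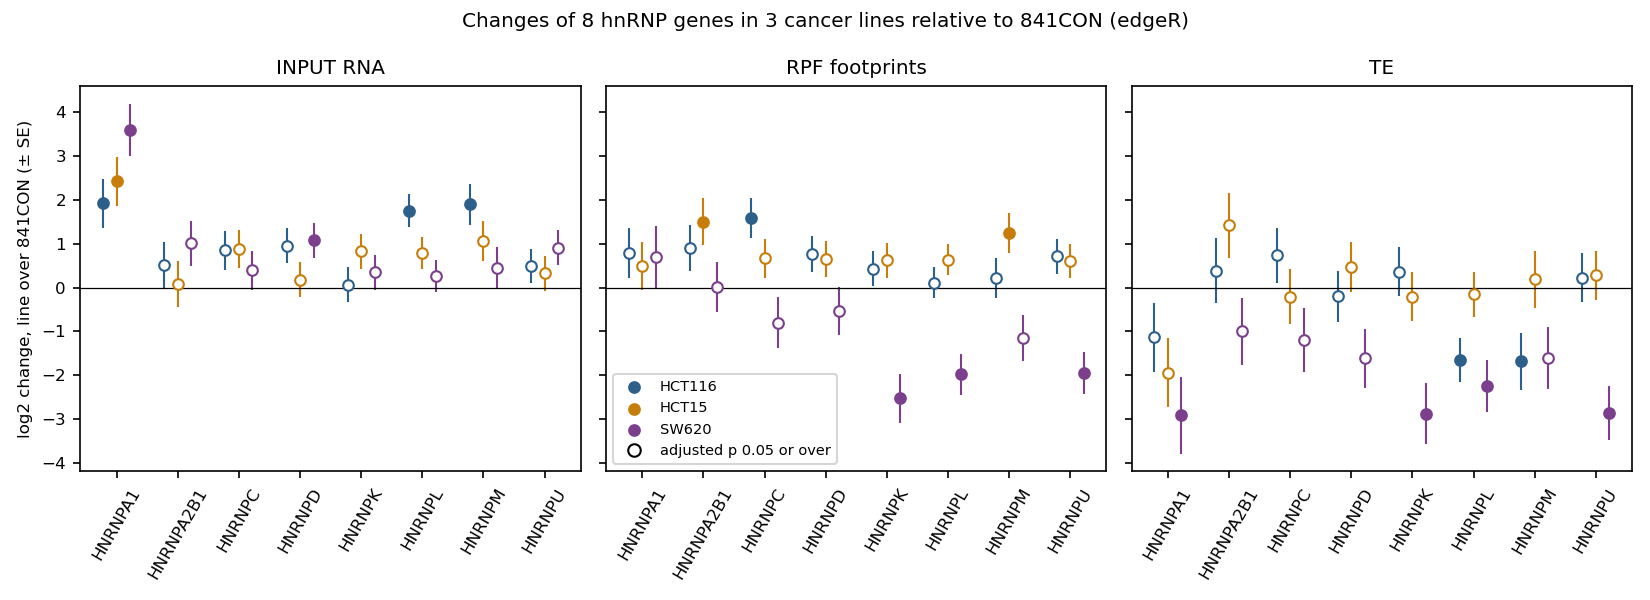
Fitted log2 change ± SE of each gene in HCT116, HCT15 and SW620 over 841CON, in INPUT, RPF and TE, with filled points where the edgeR adjusted p was under 0.05. In SW620 all 8 TE changes are below 0, between -2.91 and -0.99, while all 8 INPUT changes are above 0.

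HNRNPL, which binds CA-rich RNA and regulates splicing, rose in HCT116 INPUT but not detectably in HCT116 footprints, so that TE, which sets footprints against INPUT, fell there. HNRNPL INPUT was 417 and 443 CPM in HCT116, 192 and 248 CPM in HCT15 and 131 and 172 CPM in SW620, against 118 and 137 CPM in 841CON. Its footprints were at 258 and 289 CPM in HCT116, 378 and 409.5 CPM in HCT15 and 30.6 and 94.1 CPM in SW620, against 240.4 and 266 CPM in 841CON. INPUT in HCT116 and HCT15 lay above 841CON without overlap, whereas footprints in HCT116 overlapped those of 841CON and only SW620 footprints were below. INPUT rose 3.38-fold in HCT116 (log2 1.76 ± 0.37 SE, edgeR adjusted p = 0.000902), a call kept under all 12 alternatives. With footprints at log2 0.11 ± 0.36 (edgeR adjusted p = 0.863), TE fell by 1.65 ± 0.51 on the log2 scale (edgeR adjusted p = 0.0127). The TE call was lost with the close replicate pairs summed (edgeR adjusted p = 0.12) and without HCT116 RPF replicate 1 (edgeR adjusted p = 0.0519). In HCT15 INPUT stood at log2 0.79 ± 0.36 (edgeR adjusted p = 0.0933) and TE at -0.16 ± 0.50 (edgeR adjusted p = 0.873).

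In SW620 HNRNPL had 11 and 3 footprint counts, and footprints fell by 1.98 ± 0.46 on the log2 scale (edgeR adjusted p = 0.00247), a call kept under all 13 alternatives. The size moved with the libraries and the scaling, to -3.06 without SW620 RPF replicate 1 and -1.38 without trimmed-mean scaling. TE fell by 2.24 ± 0.59 (edgeR adjusted p = 0.0139), with INPUT at log2 0.26 ± 0.36. That TE call was lost in 6 of 17 alternatives, at an edgeR adjusted p of 0.0829 without SW620 RPF replicate 2, 0.0501 without SW620 INPUT replicate 2 and 0.0558 with the replicate number as a block.

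HNRNPM, a splicing regulator known for its part in alternative splicing during epithelial to mesenchymal transition, showed the same pattern in HCT116. HNRNPM INPUT was 416 and 487 CPM in HCT116, 199 and 308 CPM in HCT15 and 109 and 221 CPM in SW620, against 77.4 and 168 CPM in 841CON. Footprints were at 325 and 362 CPM in HCT116, 664 and 743 CPM in HCT15 and 91.8 and 171 CPM in SW620, against 284 and 307 CPM in 841CON. INPUT was highest in HCT116 and footprints highest in HCT15, both without overlap with any other of these lines. INPUT rose 3.73-fold in HCT116 (log2 1.90 ± 0.47, edgeR adjusted p = 0.00352), called under all 12 alternatives and at 2.57 without 841CON INPUT replicate 1. TE fell by 1.68 ± 0.65 in HCT116 (edgeR adjusted p = 0.042), but this call was kept in only 7 of 16 alternatives and was -1.21 (edgeR adjusted p = 0.147) without 841CON INPUT replicate 2 and -2.35 without 841CON INPUT replicate 1. It was also lost without either RPF library of 841CON or of HCT116 or without HCT116 INPUT replicate 1, at adjusted p between 0.0722 and 0.115.

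In HCT15 footprints of HNRNPM rose 2.38-fold (log2 1.25 ± 0.46, edgeR adjusted p = 0.03) beside an INPUT change of 1.06 ± 0.47 (edgeR adjusted p = 0.0823), so TE was at 0.19 ± 0.65. The footprint call was kept in 5 of 12 alternatives and was lost by DESeq2 (adjusted p = 0.0825) and without any of the 4 compared libraries, at edgeR adjusted p between 0.0523 and 0.132. INPUT in HCT15 passed without 841CON INPUT replicate 1 (1.83, edgeR adjusted p = 0.0121) or HCT15 INPUT replicate 1 (1.59, edgeR adjusted p = 0.0287), and was 0.59 (edgeR adjusted p = 0.409) without 841CON INPUT replicate 2. In SW620 footprints stood at -1.15 ± 0.53 (edgeR adjusted p = 0.0958), and TE at -1.61 ± 0.71, which passed without 841CON INPUT replicate 1 (-2.18, edgeR adjusted p = 0.0392). Across the 12 INPUT libraries HNRNPL and HNRNPM had the highest Pearson correlation of any pair of the 8, at r = 0.90 on log2 CPM. Across the 12 RPF libraries their r was 0.880, below that of HNRNPL with HNRNPU at 0.888. These values describe libraries that share groups and scaling, and carry no test.

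**Figure D3:**
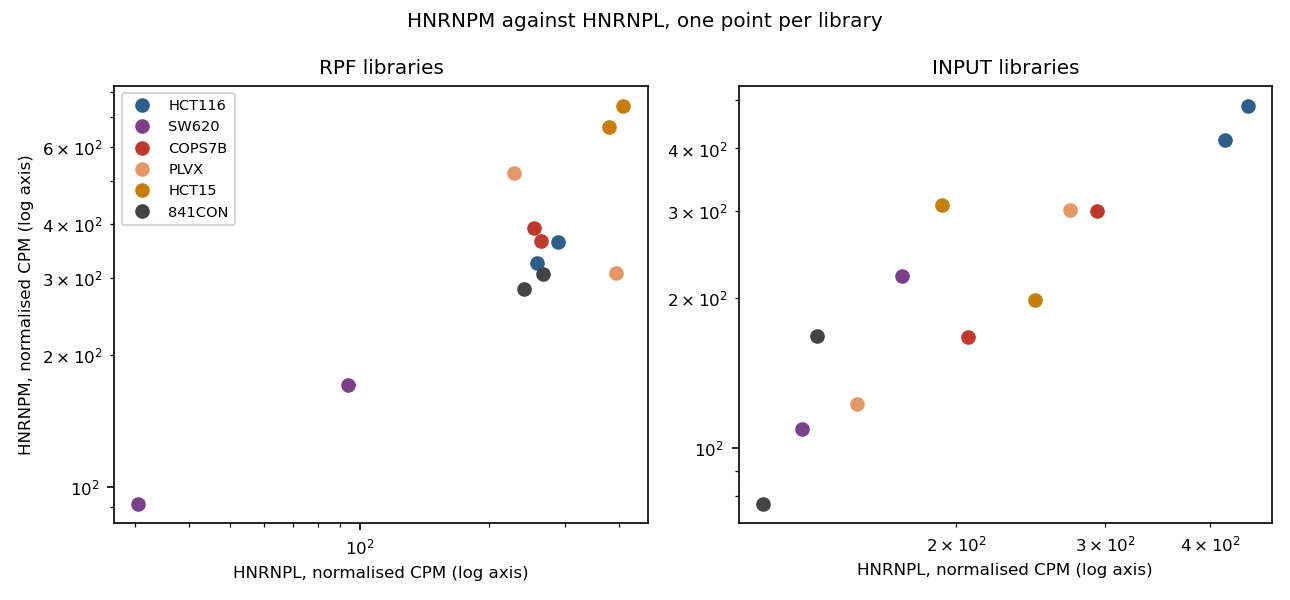
Normalised CPM of HNRNPM against HNRNPL on log axes, one point per library, RPF on the left and INPUT on the right, coloured by population. The 2 HCT116 INPUT points are the highest on both axes and the 2 SW620 RPF points the lowest on both.

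HNRNPA1, a splicing repressor and a shuttling protein that also binds internal ribosome entry sites, had INPUT levels above 841CON in each line. HNRNPA1 INPUT was 135 and 142 CPM in HCT116, 117 and 275 CPM in HCT15 and 381 and 512 CPM in SW620, against 13.2 and 55.5 CPM in 841CON. Its footprints were at 77.9 and 86.3 CPM in HCT116, 48.4 and 83.6 CPM in HCT15 and 20.4 and 128 CPM in SW620, against 44.7 and 50.2 CPM in 841CON. All 6 cancer INPUT libraries lay above both 841CON libraries, which themselves differed several-fold and held 14 and 317 counts of the gene. Footprints overlapped those of 841CON in HCT15 and SW620. INPUT rose 12.2-fold in SW620 (log2 3.61 ± 0.59, edgeR adjusted p = 9.45e-05), 5.37-fold in HCT15 (2.43 ± 0.57, edgeR adjusted p = 0.00251) and 3.78-fold in HCT116 (1.92 ± 0.56, edgeR adjusted p = 0.0101). The sizes depended on the 841CON INPUT pair: without replicate 1 they were 2.95 in SW620 and 1.35 in HCT116, where the call was lost (edgeR adjusted p = 0.0524), and without replicate 2 they were 5.07 in SW620, 3.89 in HCT15 and 3.39 in HCT116. With the compared libraries alone the calls in HCT15 (edgeR adjusted p = 0.117) and HCT116 (edgeR adjusted p = 0.147) were lost as well.

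Footprints of HNRNPA1 did not pass in any of the 3 lines, at log2 0.79 ± 0.56 in HCT116, 0.49 ± 0.55 in HCT15 and 0.70 ± 0.70 in SW620. The sign in SW620 rested on 1 library, since the change was -1.23 without SW620 RPF replicate 1 and 1.42 without replicate 2. TE was at -1.13 ± 0.78 in HCT116 (edgeR adjusted p = 0.246) and -1.94 ± 0.78 in HCT15 (edgeR adjusted p = 0.0942), and fell by 2.91 ± 0.88 in SW620 (edgeR adjusted p = 0.0269). The SW620 footprints held 15 and 2 counts of HNRNPA1. The TE call there was kept in 9 of 16 alternatives, and was -2.19 (edgeR adjusted p = 0.129) without SW620 RPF replicate 2, -2.25 (edgeR adjusted p = 0.0502) without 841CON INPUT replicate 1 and -4.84 without SW620 RPF replicate 1, where it held. It was also lost without SW620 INPUT replicate 1 (edgeR adjusted p = 0.0716) and without 841CON RPF replicate 1 (edgeR adjusted p = 0.0728). The HCT15 value passed by DESeq2 (-2.29, adjusted p = 0.0213), without a filter on low counts (edgeR adjusted p = 0.0277), without 841CON INPUT replicate 2, at -3.40 (edgeR adjusted p = 0.0067), and without HCT15 INPUT replicate 2, at -2.41 (edgeR adjusted p = 0.0457). In HCT116 TE passed without 841CON INPUT replicate 2, at -2.60 (edgeR adjusted p = 0.0153). The part that near-identical pseudogene copies have in the HNRNPA1 counts was not tested.

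The make-up of the family's own counts differed between populations for several genes. In INPUT the HNRNPK share was 13.8% ± 0.489 in HCT116, against 23.1% ± 4.61 in 841CON, and the HNRNPL share 13.96% ± 0.427 in HCT116, against 7.48% ± 1.77 in 841CON (SD, n = 2 each). In footprints the HNRNPA2B1 share was 28.0% ± 0.293 in COPS7B, against 14.6% ± 1.04 in 841CON. The HNRNPA1 share of the 8 genes' INPUT counts was 4.50% ± 0.0858 in HCT116, 15.4% ± 7.96 in SW620, 19.8% ± 6.55 in COPS7B, 17.0% ± 1.59 in PLVX and 6.89% ± 2.84 in HCT15, against 1.89% ± 1.48 in 841CON. In footprints it was 3.07% ± 0.234 in HCT116, 1.49% ± 0.0862 in COPS7B, 0.764% ± 0.370 in PLVX and 2.03% ± 0.384 in HCT15, against 2.78% ± 0.0214 in 841CON. SW620 footprints gave 7.94% ± 4.49, from only 15 and 2 counts of the gene. Thus the INPUT share was lowest in 841CON, while the footprint share was low in the 3 HCT15 populations.

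**Figure D4:**
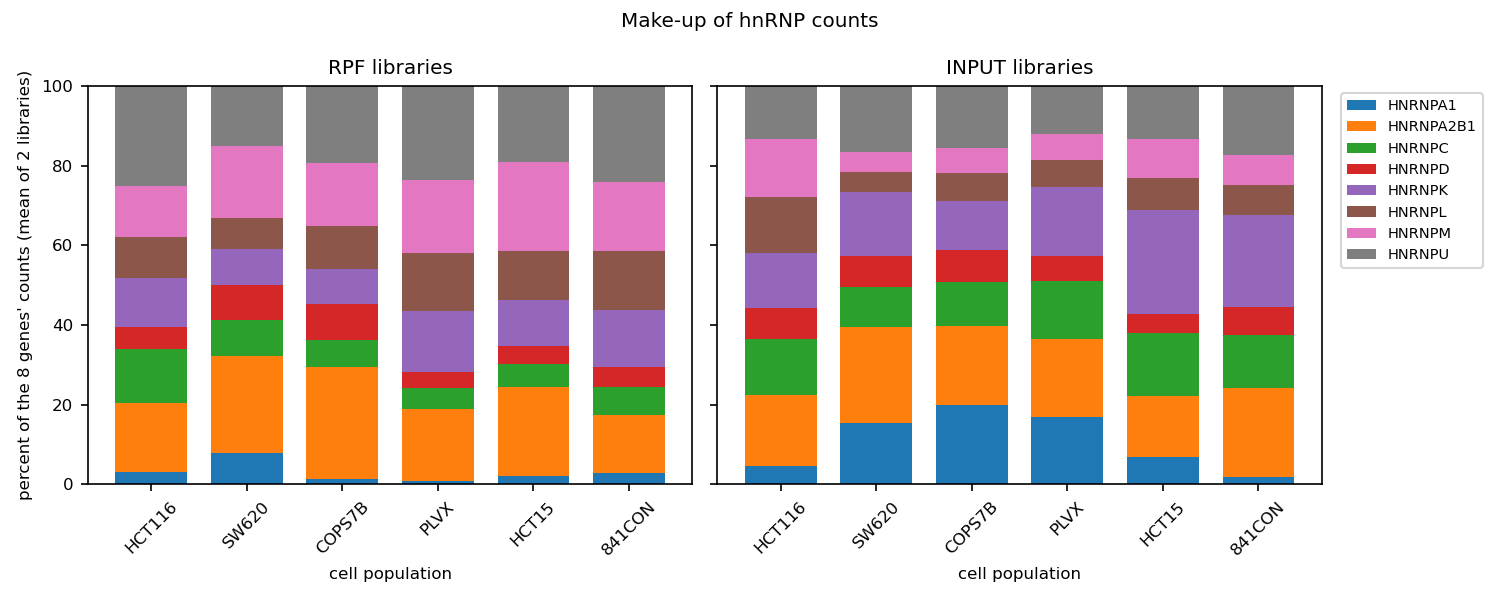
Share of each gene in the summed counts of the 8 hnRNP genes, as the mean of 2 libraries per group, for RPF and INPUT. The HNRNPA1 band reaches 19.8% in COPS7B INPUT and 1.89% in 841CON INPUT, and shares are not corrected for transcript length.

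HNRNPA2B1, a close relative of HNRNPA1 that binds pre-mRNA and sorts microRNAs into exosomes, rose in HCT15 footprints. HNRNPA2B1 INPUT was 551 and 556 CPM in HCT116, 371 and 452 CPM in HCT15 and 553 and 1007 CPM in SW620, against 316 and 459 CPM in 841CON. Footprints were at 446 and 487 CPM in HCT116, 691 and 729 CPM in HCT15 and 40.8 and 453 CPM in SW620, against 224 and 275 CPM in 841CON. The HCT15 footprints were the highest, while the SW620 pair straddled 841CON, with 53 and 4 counts. Footprints rose 2.84-fold in HCT15 (log2 1.51 ± 0.53, edgeR adjusted p = 0.0238), beside INPUT at 0.08 ± 0.52 and TE at 1.42 ± 0.74 (edgeR adjusted p = 0.198). The footprint call was kept in 6 of 12 alternatives and was lost without 841CON RPF replicate 1 (edgeR adjusted p = 0.0804) or 2 (0.134), without HCT15 RPF replicate 2 (0.0648) and with the replicate number as a block (0.0596). In SW620 the footprint change was 0.01 ± 0.57, but without SW620 RPF replicate 1 it was -2.62 (edgeR adjusted p = 0.0101), so its direction rested on that library. TE in SW620 was -0.99 ± 0.77 with both libraries and -3.63 (edgeR adjusted p = 0.00666) without that one. INPUT did not pass in any line.

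HNRNPC, which binds uridine tracts and keeps Alu-derived sequences from being spliced in, was the only one of the 8 called in HCT116 footprints. HNRNPC footprints were at 339.8 and 380.0 CPM in HCT116, 118 and 261 CPM in HCT15 and 40.8 and 94.1 CPM in SW620, against 110.2 and 129 CPM in 841CON. Its INPUT was 404 and 461 CPM in HCT116, 299 and 584 CPM in HCT15 and 256 and 374 CPM in SW620, against 133 and 344 CPM in 841CON. HCT116 lay above 841CON in both assays without overlap. Footprints rose 3.00-fold in HCT116 (log2 1.59 ± 0.46, edgeR adjusted p = 0.00543), with INPUT at 0.85 ± 0.44 (edgeR adjusted p = 0.137) and TE at 0.74 ± 0.63 (edgeR adjusted p = 0.35). The footprint call was lost with close pairs summed (edgeR adjusted p = 0.137) and at equal depth (edgeR adjusted p = 0.0792). INPUT of HNRNPC depended on the 841CON pair: without replicate 1 it was 0.36 in HCT116 (edgeR adjusted p = 0.554), 0.45 in HCT15 and -0.19 in SW620, and without replicate 2 it passed in all 3 lines, at 1.70 in HCT116 (edgeR adjusted p = 0.0139), 1.74 in HCT15 (edgeR adjusted p = 0.0121) and 1.25 in SW620 (edgeR adjusted p = 0.0476). TE of HNRNPC in SW620 was -1.19 ± 0.73, and passed without 841CON INPUT replicate 2 at -2.04 (edgeR adjusted p = 0.0443).

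HNRNPK, which binds cytosine-rich RNA and DNA through KH domains, fell in SW620 footprints. HNRNPK footprints were at 314 and 346 CPM in HCT116, 260.4 and 493 CPM in HCT15 and 17.1 and 71.4 CPM in SW620, against 229 and 260.5 CPM in 841CON. Its INPUT was 419 and 432 CPM in HCT116, 583 and 862 CPM in HCT15 and 381 and 653 CPM in SW620, against 311 and 499.7 CPM in 841CON. Only the SW620 footprints lay below 841CON, and INPUT in SW620 overlapped it. Footprints fell by 2.52 ± 0.56 on the log2 scale in SW620 (edgeR adjusted p = 0.0016), called under all 13 alternatives, from 2 and 7 counts. The size was -1.79 without SW620 RPF replicate 1 (edgeR adjusted p = 0.0493), -3.85 without replicate 2 and -1.93 without trimmed-mean scaling. TE fell by 2.87 ± 0.69 (edgeR adjusted p = 0.00821), a call kept in 14 of 17 alternatives. It was lost with close pairs summed (edgeR adjusted p = 0.0604) and with only the compared libraries (edgeR adjusted p = 0.0789). It was also lost without SW620 RPF replicate 1, where TE fell by 2.14, against 4.19 without replicate 2. HNRNPK passed in neither assay nor in TE in HCT116 or HCT15, where TE was at 0.36 ± 0.56 and -0.21 ± 0.56.

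HNRNPU, a scaffold attachment factor that binds both RNA and chromatin, fell in the same way. HNRNPU footprints were at 658 and 689 CPM in HCT116, 447 and 800.4 CPM in HCT15 and 81.6 and 128 CPM in SW620, against 401 and 420.2 CPM in 841CON. Its INPUT was 389 and 425 CPM in HCT116, 359 and 366 CPM in HCT15 and 344 and 742 CPM in SW620, against 215 and 367 CPM in 841CON. SW620 footprints were far below the other lines without overlap, while HCT116 and HCT15 footprints lay above 841CON. In SW620, from 15 and 8 counts, footprints fell by 1.95 ± 0.47 on the log2 scale (edgeR adjusted p = 0.00332), called under all 13 alternatives and at -1.35 without trimmed-mean scaling. TE fell by 2.86 ± 0.62 (edgeR adjusted p = 0.00433), a call kept in 16 of 17 alternatives and lost only with the compared libraries alone (edgeR adjusted p = 0.0503), and at -2.20 without SW620 INPUT replicate 2. INPUT in SW620 was at 0.91 ± 0.40 (edgeR adjusted p = 0.0697) and at 0.25 (edgeR adjusted p = 0.723) without SW620 INPUT replicate 2, and passed without SW620 INPUT replicate 1 (edgeR adjusted p = 0.0176) or 841CON INPUT replicate 1 (edgeR adjusted p = 0.0314).

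HNRNPD, also known as AUF1, which binds AU-rich elements in mRNA tails and takes part in their decay, was called in SW620 INPUT and in no other comparison with 841CON. HNRNPD INPUT was 235 and 242 CPM in HCT116, 89.1 and 188 CPM in HCT15 and 149.8 and 365 CPM in SW620, against 121 and 124 CPM in 841CON. Footprints were at 139 and 157 CPM in HCT116, 121 and 154 CPM in HCT15 and 51.0 and 68.4 CPM in SW620, against 85.5 and 88.8 CPM in 841CON. SW620 INPUT lay above and SW620 footprints below 841CON, without overlap. INPUT rose 2.11-fold in SW620 (log2 1.08 ± 0.41, edgeR adjusted p = 0.0376), but this call was kept in 7 of 13 alternatives and the change was 0.29 (edgeR adjusted p = 0.673) without SW620 INPUT replicate 2. It was also lost without 841CON INPUT replicate 1 (edgeR adjusted p = 0.0991) or 2 (0.0878) and with the replicate number as a block (0.0614). TE in SW620 was at -1.61 ± 0.67 (edgeR adjusted p = 0.0989), and fell by 2.07 without SW620 INPUT replicate 1 (edgeR adjusted p = 0.0281).

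The 3 cancer lines were also compared with each other by an edgeR F test. INPUT differed among them for 3 of 8 genes, where 45.9% of genes were called: HNRNPL (adjusted p = 0.00615) and HNRNPM (adjusted p = 0.0405), both highest in HCT116, and HNRNPA1 (adjusted p = 0.032), highest in SW620. With close pairs summed none of these 3 calls held. HNRNPL kept its call under 14 of 15 alternatives, HNRNPM under 9 of 15 and HNRNPA1 under 7 of 14, the last also losing it with the replicate number as a block (adjusted p = 0.0564) and without any 1 of the HCT116 or SW620 INPUT libraries. HNRNPM lost it without either HCT116 INPUT library or SW620 INPUT replicate 1. TE differed for 6 of 8, where 52.8% of 8304 genes were called. HNRNPU (adjusted p = 0.000656) and HNRNPK (adjusted p = 0.00235) had the smallest p and kept the call under all 21 alternatives, HNRNPL (adjusted p = 0.0109) under 19, and HNRNPM, HNRNPA2B1 and HNRNPD under 9, 5 and 6. With the replicate number as a block HNRNPA2B1 (adjusted p = 0.0808) and HNRNPD (adjusted p = 0.0516) lost it. Footprints, a test added after seeing the data, differed for 5 of 8, where 66.3% of genes were called. HNRNPK, HNRNPL and HNRNPU kept that call under all 15 alternatives, and HNRNPC and HNRNPM under 14, each losing it at equal depth. The counts of 3 and 5 are close to the background share. That of 6 was above it in the main model. Over alternatives other than left-out libraries it ran between 2 and 7, so it does not set the family apart.

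Set against all genes of the same population, the ratio of mean footprint CPM to mean INPUT CPM placed the family widely apart. The rank of HNRNPM was at percentile 56.8 in HCT116, 56.2 in SW620, 86.0 in COPS7B, 87.1 in PLVX and 90.6 in HCT15, against 87.1 in 841CON. HNRNPL stood at 52.5 in HCT116, 28.4 in SW620, 58.6 in COPS7B, 73.8 in PLVX and 77.6 in HCT15, against 82.0 in 841CON. HNRNPA1 ranked at 50.9 in HCT116, 10.7 in SW620, 0.136 in COPS7B, 0.299 in PLVX and 17.0 in HCT15, against 70.3 in 841CON. Thus HNRNPM kept a rank above the middle in all 6 populations, and HNRNPA1 was among the lowest-ranked genes of the PLVX and COPS7B populations. HNRNPA1 had only 15 and 29 footprint counts in PLVX, and 174 and 176 in COPS7B. In HCT116 the 8 genes lay close together, between 50.9 and 77.5, and in SW620 7 of them lay at or below 28.4. These ranks are descriptions, set by 2 libraries per assay.

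**Figure D5:**
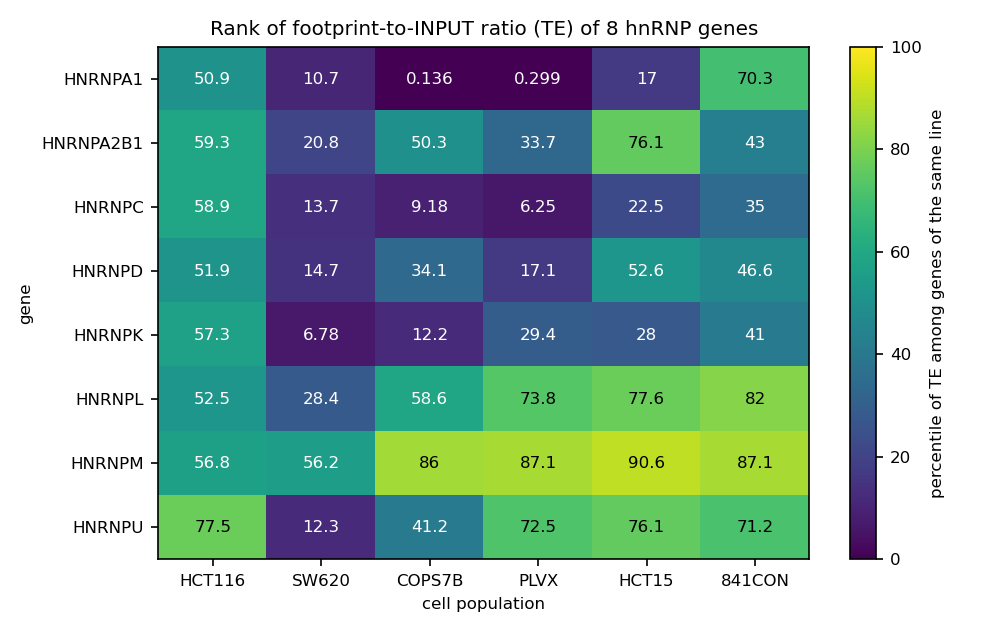
Percentile of each gene's ratio of mean footprint CPM to mean INPUT CPM among genes of the same population, with genes in rows and populations in columns. HNRNPM lies between 56.2 and 90.6 throughout, and HNRNPA1 lies at 0.136 in COPS7B and 0.299 in PLVX.

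COPS7B overexpression was compared with the PLVX form to see what the added gene changed. For INPUT 0 of 8 genes passed in edgeR (0 at an unadjusted p under 0.05, 0 by DESeq2), where 17.5% of all genes were called (9.16% higher and 8.35% lower), and the family's median was 0.26 (all genes 0.07). For footprints 1 of 8 rose, where 17.3% were called (7.92% higher and 9.42% lower), and the median was 0.19 (all genes 0.05). HNRNPD footprints were at 214 and 221 CPM in COPS7B, against 88.5 and 89.6 CPM in PLVX. Its INPUT was 234 and 352 CPM in COPS7B and 137 and 259 CPM in PLVX, and these overlapped. HNRNPD footprints rose 2.44-fold (log2 1.29 ± 0.41, edgeR adjusted p = 0.0354), with INPUT at 0.57 ± 0.40 (edgeR adjusted p = 0.423) and TE at 0.72 ± 0.57. Leaving out any 1 of the 4 compared libraries ended the call, at edgeR adjusted p between 0.127 and 0.152 and log2 changes between 1.27 and 1.37, as did summing close pairs (edgeR adjusted p = 0.226) and equal depth (edgeR adjusted p = 0.116).

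For TE 0 of 8 passed between COPS7B and PLVX in edgeR, where 0% of 9542 genes were called, 132 genes had an unadjusted p under 0.05 and none of these was one of the 8. DESeq2 also called 0 of 8. The TE changes lay between -0.80 ± 0.56 for HNRNPU and 0.72 ± 0.57 for HNRNPD, with 4 positive and 4 negative and a median of 0.07 (all genes -0.02). HNRNPA1, at 617 and 774 CPM of INPUT in COPS7B and 472 and 570.4 CPM in PLVX, had footprints at 34.4 and 37.0 CPM in COPS7B and 9.76 and 26 CPM in PLVX. It did not pass in footprints (log2 1.03 ± 0.60, edgeR adjusted p = 0.271).

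The PLVX form was also compared with parental HCT15, 2 populations whose tables differ in form, since the PLVX and COPS7B tables alone carry summary lines that name no gene. For INPUT 0 of 8 passed in edgeR (1 at an unadjusted p under 0.05, 0 by DESeq2), where 0.67% of genes were called (0.603% higher and 0.067% lower). For footprints all 8 changes were negative (median -0.69, all genes 0). Among genes in the top quartile by footprint level, which holds 7 of the 8, the median was -0.26 with 6.4% called lower. With DESeq2 or without either PLVX RPF library 7 of 8 were negative, and without HCT15 RPF replicate 2 6 of 8. At equal depth 5 of the 7 genes tested were negative, with a median of -0.32. Called lower was 1 of 8, where 10.5% of genes were called (7.43% higher and 3.04% lower). HNRNPA1 footprints were at 9.76 and 26 CPM in PLVX, from only 15 and 29 counts, against 48.4 and 83.6 CPM in HCT15. Its INPUT was 472 and 570.4 CPM in PLVX, against 117 and 275 CPM in HCT15. The 2 assays thus moved in opposite directions for this gene, without overlap between the populations in either.

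HNRNPA1 footprints fell by 1.93 ± 0.60 on the log2 scale in PLVX (edgeR adjusted p = 0.0465), with INPUT at 1.41 ± 0.54 (edgeR adjusted p = 0.291). The footprint call was kept in 4 of 11 alternatives and was lost without HCT15 RPF replicate 2 (-1.47, edgeR adjusted p = 0.286), PLVX RPF replicate 1 (-1.32, edgeR adjusted p = 0.325) or PLVX RPF replicate 2 (-2.77, edgeR adjusted p = 0.0562), and with the replicate number as a block (edgeR adjusted p = 0.0745). For TE 0 of 8 passed in edgeR (1 at an unadjusted p under 0.05), where 0.175% of 9738 genes were called (0.154% higher and 0.0205% lower). That gene was HNRNPA1, at -3.34 ± 0.81 (edgeR adjusted p = 0.0869), which passed by DESeq2 (adjusted p = 0.00759), without a filter on low counts (edgeR adjusted p = 0.00436) and without HCT15 RPF replicate 1 (edgeR adjusted p = 0.0168). The other 7 TE changes lay between -1.32 and 0.27.

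Across the 12 INPUT libraries the gene outside the family whose log2 CPM correlated best with the mean of the 8 was ENSG00000113368 (r = 0.98), followed by ENSG00000130826 (r = 0.93). Across the 12 RPF libraries these were ENSG00000172172 (r = 0.99) and ENSG00000196419 (r = 0.98). Within the family the lowest INPUT correlation was between HNRNPA1 and HNRNPM (r = 0.07), and in RPF between HNRNPA1 and HNRNPK (r = -0.23), while HNRNPU followed the family's mean most closely in RPF (r = 0.95) and HNRNPD in INPUT (r = 0.83). The libraries share groups and depth, so these are descriptions.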

How the data were processed

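Raw counts per gene and library were used as the authors deposited them. Per the submitters' processing notes, cutadapt 3.5, STAR 2.7.9 and HTSeq 2.0.2 were used with GRCh38. Their settings for strand and for reads that map to several places were not given there. Per the labels' protocols, libraries came from cycloheximide-treated cells after a sucrose gradient and rRNA removal. Summary lines of the 8 PLVX and COPS7B tables that name no gene were left out (reads not uniquely aligned 16.6% to 27.2% and not aligned 19.2% to 57.8% there).

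All 24 libraries entered 1 edgeR 4.0.16 quasi-likelihood model in R 4.3.3, with a mean for each of 12 groups (12 residual degrees of freedom), trimmed-mean (TMM) scaling within each assay and a minimum count of 10 in edgeR's filter, leaving 11938 genes. TE was tested as the assay by line interaction, leaving out genes whose INPUT counts averaged under 10 in either line. Tests were two-sided, adjusted by Benjamini-Hochberg over all tested genes and called under 0.05. Likeness used log2 CPM with a prior count of 2. The code was tested on simulated data. The labels do not say that replicates were separate cultures, so p-values measure only the spread between libraries, which may be technical. All 8 genes are named by rule; the members and lists were chosen with earlier results of these data known. Alternatives were DESeq2 1.42.0, no TMM, TMM over all libraries, no filter, 4 close replicate pairs summed, equal depth, a replicate block, only the compared libraries and each library left out. The footprint F test among lines and a crossed SW620 block were added after seeing the data. Other hnRNP genes and cell type markers, which would need names for the Ensembl identifiers, were not analysed here.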

Additional observations from a re-analysis of the deposited data

Results flagged for a closer look

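The response relative to 841CON differed among HCT116, HCT15 and SW620 by an edgeR F test for several genes, with adjusted p-values over all genes tested. INPUT differed for HNRNPA1 (adjusted p = 0.032), HNRNPL (adjusted p = 0.00615) and HNRNPM (adjusted p = 0.0405), but HNRNPA1 kept the call in 7 of 14 alternatives and HNRNPM in 9 of 15, and none of the 3 kept it with close pairs summed. TE differed for HNRNPU (adjusted p = 0.000656), HNRNPK (adjusted p = 0.00235), HNRNPL (adjusted p = 0.0109), HNRNPM (adjusted p = 0.0347), HNRNPA2B1 (adjusted p = 0.0379) and HNRNPD (adjusted p = 0.0384). Footprints differed for HNRNPK (adjusted p = 0.000239), HNRNPU (adjusted p = 0.00024), HNRNPL (adjusted p = 0.000306), HNRNPM (adjusted p = 0.00218) and HNRNPC (adjusted p = 0.00373). SW620 had the lowest footprint level of all 5 of these genes, in libraries of 98043 and 84262 counts, and the part of depth was tested only by thinning to equal depth, which left 3 called.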

How the results depend on the processing

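Of the comparisons of single genes under an alternative, 1835 gave the result of the main model, a number that includes genes called in neither. A call was lost in 127, which only genes called in the main model could do, and gained in 51. In 1 the direction reversed. That was HNRNPA2B1 footprints in SW620, at log2 -2.62 without SW620 RPF replicate 1, against 0.85 without SW620 RPF replicate 2. Numbers of the 8 genes called moved as follows, with smaller moves left out of the list. Over all alternatives but the left-out libraries, HCT116 INPUT (3 in the main model) ran between 2 and 4 and SW620 INPUT (2) between 1 and 3. TE among lines (6 in the main model) ran between 2 and 7. Except where said, the cause was not tested. With DESeq2 they were 2 for HCT15 INPUT and 1 each for HCT15 RPF, HCT15 TE and PLVX TE. Without TMM they were 4 for HCT116 RPF, 1 for HCT116 TE, 5 for HCT15 INPUT, 0 for PLVX RPF and 3 for TE among lines, and with TMM over all 24 libraries 3 for HCT15 INPUT. Without a filter they were 2 for HCT15 INPUT and 1 each for HCT15 TE and PLVX TE. With close pairs summed, which leaves fewer samples, they were 0 for HCT116 RPF, HCT116 TE, HCT15 RPF, COPS7B RPF, PLVX RPF and INPUT among lines, 1 for SW620 INPUT and SW620 TE and 2 for TE among lines. At equal depth, where HNRNPA1 was not tested, they were 0 for HCT116 RPF, HCT15 INPUT, HCT15 RPF, COPS7B RPF and PLVX RPF, 1 for HCT116 TE and SW620 INPUT, 2 for SW620 TE and TE among lines and 3 for RPF among lines. With only the compared libraries they were 6 for HCT116 RPF, 0 for HCT15 INPUT, SW620 TE and PLVX RPF, 1 for SW620 INPUT and 2 for COPS7B RPF.

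Leaving out 1 library at a time gave 2 to 4 called for HCT116 INPUT, 1 to 1 for HCT116 RPF, 0 to 2 for HCT116 TE (0 without HCT116 RPF replicate 1), 1 to 2 for HCT15 INPUT, 0 to 1 for HCT15 RPF and 0 to 1 for HCT15 TE. It gave 1 to 3 for SW620 INPUT, 3 to 4 for SW620 RPF and 2 to 5 for SW620 TE (2 without SW620 RPF replicate 2). For COPS7B it gave 0 to 0 for INPUT, RPF and TE, for PLVX 0 to 0 for INPUT and 0 to 1 for RPF and TE, and among lines 1 to 3 for INPUT, 3 to 6 for TE and 5 to 6 for RPF.

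Same-numbered INPUT and RPF libraries deviated together in PLVX (r = 0.223 across genes) but in none of the other 5 populations (r between -0.118 in SW620 and 0.0156 in HCT116), so the numbers were not taken to pair them. With the replicate number as a block the count was 1 for HCT15 RPF, 1 for SW620 INPUT, 0 for PLVX RPF, 3 for SW620 TE, and among lines 2 for INPUT and 4 for TE, and elsewhere it was as without the block. With the SW620 footprint numbers crossed the counts for SW620 were 3 for INPUT, 4 for RPF and 4 for TE, and among lines 2, 7 and 6. Depth limits SW620 footprints most, where single genes had between 2 and 53 counts.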
